A study of Mus musculus with 12 samples.

Results

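The comparison described here sets 3 cultures of mouse bone marrow-derived dendritic cells (BMDCs) exposed to γ-PGA nanoparticles for 24 h against 3 cultures exposed for 6 h, 6 of the 12 samples of a time course. The members were chosen by their titles alone, and every gene measured was compared. BMDCs are grown from bone marrow precursors with the growth factor GM-CSF, here at 20 ng/ml, and were harvested on day 7 as immature dendritic cells from female mice aged 6 to 8 weeks. Nanoparticles of γ-PGA, poly(γ-glutamic acid), were added at 300 µg/ml, and RNA was taken at 0, 6, 12 and 24 h, with 3 samples at each time from independent experiments per the series' design text. All groups share the GM-CSF culture and, from 6 h on, the particles. Cultures kept without particles for 6, 12 or 24 h were not analysed here, so time in culture and time with particles cannot be told apart. The question the comparison addresses is which early changes had faded by 24 h, which had lasted and which appeared late.

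Dendritic cells take up particles and microbes, and on sensing danger they enter a maturation programme. Early in that programme NF-kB and interferon regulatory factors drive cytokines, chemokines and interferon beta. Secreted interferon then acts back on the cells to induce a second set of antiviral genes, while inhibitors such as IκBα and SOCS proteins limit the signal. Mature cells display costimulatory molecules and the homing receptor CCR7, and their division slows.

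RNA was labelled with 1 dye and hybridised to Agilent mouse arrays. Each time point was deposited in 2 forms, and they disagree at 24 h. The authors' value table gives, for every probe, a linear ratio to the median of the 3 values at 0 h, with 0.01 as its lowest value. The scanner files give the spot intensities of each array. In the value table the 24 h columns correlated with the 12 h columns at a mean r of 0.896 and with the 6 h columns at 0.741, against 0.958 among themselves. Scanner intensities of the arrays labelled 24 h had a mean r of 0.991 with those of 0 h and 0.923 with those of 6 h, over 18084 genes. Between the arrays labelled 24 h and 0 h, 154 genes (0.837%) were called. The arrays labelled 24 h and the table's 24 h columns thus differ, and which of the sources holds the 24 h samples was not tested. The value table is given first, "rose" and "fell" refer to its calls, and for each gene list the scanner calls for the arrays labelled 24 h against 6 h are given beside it. Between 50.9% and 59.6% of spots per array were well above background. Of the 11 conventional dendritic cell markers, 8 were well above background on all 12 arrays and none was below it on all, and the 10 granulocyte markers with a probe were also above background on every array.

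A gene was called where limma's adjusted p was below 0.05 and the change was at least 2-fold. Of 18407 genes, 2808 (15.3%) were called between 24 h and 6 h in the value table: 1220 (6.63%) were higher at 24 h and 1588 (8.63%) lower. The median change over all genes was -0.0489 on the log2 scale. Changes of at least 4-fold were found in 233 of the higher and 368 of the lower genes. Without the fold threshold, 11329 genes passed the adjusted p. No slide held both 6 h and 24 h arrays, so no within-slide value exists. With slide as a block, joined through the 12 h arrays, 2606 genes were called, 1425 higher and 1181 lower. The only other array on the slide of the 24 h arrays was the third 12 h sample, so this link rests on it. Slide numbers come from the scanner arrays, and those labelled 24 h differ from the table's 24 h columns. Whether the slide numbers hold for these columns was not tested, so results with slide as a block cannot settle a slide effect in the table. In the scanner values 5337 genes (29%) were called, 3428 (18.6%) higher and 1909 (10.4%) lower, around a median shift of 0.152 over all genes. With normexp background correction these became 1442 higher and 1257 lower. Only 39.2% of the table's calls were called the same way by the scanner values, and 20.6% of the scanner's calls were called the same way in the table. Of the 1588 genes lower in the table, the scanner values called 463 lower and 423 higher. Of the 1220 higher in the table, they called 639 higher and 114 lower. Counts in the gene lists below are to be read beside the shares of all genes called, 15.3% in the table and 29% in the scanner values.

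**Figure D1:**
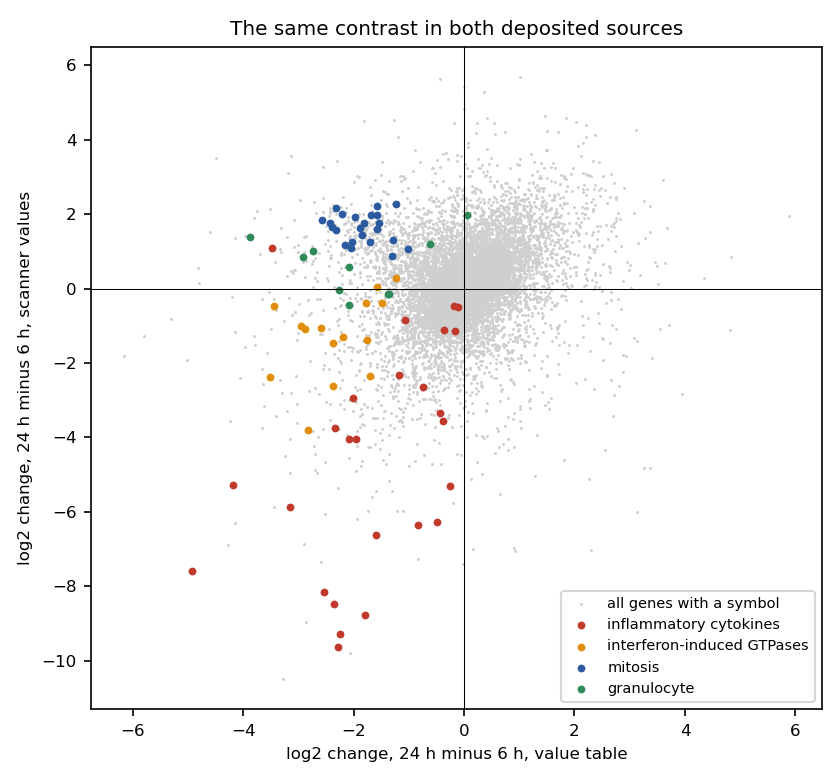
Log2 change between 6 h and 24 h for each gene with a symbol, in the value table (horizontal axis) and in the scanner values (vertical axis), with 4 gene lists coloured. Inflammatory cytokines lie at or below 0 in the table and, with the exception of 1 called member, in the scanner values; mitosis genes lie below 0 in the table and above 0 in the scanner values.

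Setting the 24 h change beside the earlier change from 0 h sorted the genes into courses. Both contrasts use the same 6 h columns, so the class sizes are a description. Of 2439 genes (13.3%) called higher at 6 h than at 0 h, 522 had fallen by 24 h (transient), 1752 were not called between 6 h and 24 h (held) and 165 had risen further. Of the 522 transient genes, 347 were no longer called above 0 h and 175 still were, where 13.3% of all genes were called above 0 h at 24 h. Of 2170 genes (11.8%) called lower at 6 h, 445 had risen back (recovered) and 271 had fallen further. Genes not called at 6 h gave 610 late rises and 795 late falls. The transient genes went through a median of 2.16 at 6 h, 1.5 at 12 h and 0.51 at 24 h on the log2 scale, and the late rises through -0.28, 0.62 and 1.11.

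**Figure D2:**
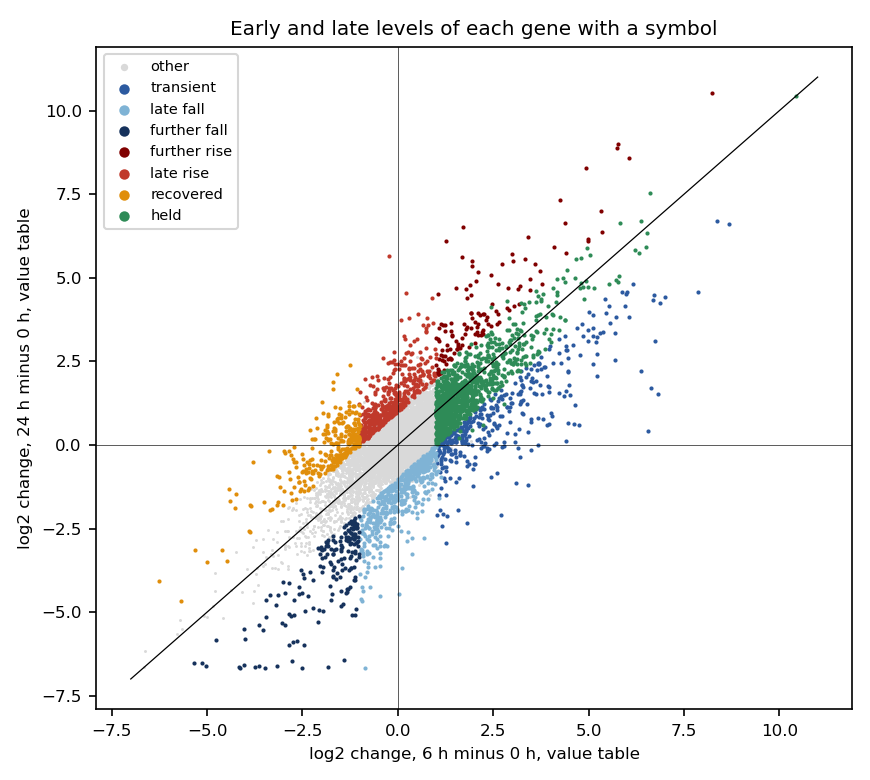
Log2 change from 0 h at 6 h (horizontal axis) and at 24 h (vertical axis) in the value table for each gene with a symbol, coloured by course, with the line of equal change. The transient and late fall genes lie below the line and the further rise, late rise and recovered genes above it; the row of points near the bottom is at the table's lowest ratio.

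The change was spread over both intervals. Both steps add up to the change that chose the genes, so shares of calls above those of all genes follow from that choice. Of the 1220 higher genes, 476 were already called between 6 h and 12 h, where 3.07% of all genes were called higher, and 202 between 12 h and 24 h, where 1.4% were. Both steps were called for 72 and neither for 614. Of the 1588 lower genes, 436 were called between 6 h and 12 h (2.73% of all genes) and 500 between 12 h and 24 h (3.17%), with 144 in both and 796 in neither.

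Inflammatory cytokines declined together. Of 26 measured, 16 fell and none rose, with a list median of -1.7 on the log2 scale beside -0.0489 for all genes, and 15 of the 16 had been called higher at 6 h. Tnf, the cytokine that starts many inflammatory cascades, stood at ratios of 39.1, 37.3 and 37.6 at 6 h and 4.2, 4.08 and 4.5 at 24 h. All 3 values at 24 h lay below all 3 at 6 h, as they did in 36.2% of all genes (in 30.6% they lay above), a fall of 8.93-fold (log2 change -3.16, SE 0.0553, adjusted p = 1.79e-10). Il6, a driver of the acute-phase response, was at 109, 106 and 97.6 and then at 21.9, 20.8 and 23.6, which is 4.72-fold lower (adjusted p = 3.02e-09). The 24 h level of Il6 was still many times that at 0 h. Il1b, which encodes the pyrogen IL-1β, fell 4.26-fold and Il1a, its relative, 3.48-fold. Il23a, the p19 subunit of IL-23, fell 5.76-fold, from 5.49, 7.23 and 5.65 to 1.38, 0.875 and 0.972, and its groups did not overlap.

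Members of this list differed in how far they came down. Il1f6, which encodes the epithelial and myeloid cytokine IL-36α, fell 30.3-fold, from 151, 134 and 123 to 3.34, 4.98 and 5.38. Edn1, the vasoactive peptide endothelin 1, fell 18.1-fold. Il12a, the p35 subunit of IL-12, was not called: it stood at 35.9, 40 and 33.8 at 6 h, at a mean of 65.7 at 12 h and at 31.4, 29.3 and 31.1 at 24 h (adjusted p = 0.291). Il10, an anti-inflammatory cytokine, changed by -0.83 on the log2 scale, below the fold threshold. Ltb, a membrane-bound TNF relative, followed another course: near its 0 h level at 6 h (1.62, 1.67 and 1.57), it was at 0.144, 0.142 and 0.149 at 24 h. In the scanner values 22 of the 26 cytokines were called lower and 1 higher, which was Ltb at 1.1. Il6, saturated on 2 of 3 arrays at 6 h, was at -9.29 and Tnf at -5.88 there, larger falls than in the table.

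Chemokines, which attract other leukocytes, split into those that collapsed and those that lasted. Of 23 measured, 14 fell and 1 rose, with a median of -1.67. Cxcl10, which draws activated T cells through CXCR3, stood at 125, 109 and 104 at 6 h and at 2.84, 2.78 and 2.92 at 24 h, 39.5-fold lower (log2 change -5.31, SE 0.0766, adjusted p = 5.77e-11). Its 12 h mean of 19.4 lay between them. Cxcl9, another CXCR3 ligand, fell 71.1-fold, from 108, 86.8 and 92.6 to 1.45, 0.893 and 1.87, which was the largest fall of any named gene above the lowest ratio. Ccl17 and Ccl22, ligands of CCR4, fell 13.7-fold and 3.57-fold, and Ccl17 ended at 0.0795, 0.0812 and 0.0774, below its 0 h level. By contrast Cxcl5, a neutrophil attractant, held at 1383, 1273 and 1268 at 6 h and 1338, 1219 and 1346 at 24 h, groups that overlap (adjusted p = 0.97). Ccl5, which attracts T cells and monocytes, was at 19.7, 17.1 and 17.8 and then 22.9, 22.7 and 23.1, not called at a log2 change of 0.33. Cxcl14 was the single member that rose, 6.35-fold, from 0.911, 0.879 and 0.783 to 5.54, 5.33 and 5.43. The scanner values called 16 chemokines lower and 1 higher, but put Cxcl5 at -7.39 and Ccl5, saturated on all 3 arrays at 6 h, at least 15.5-fold lower, where the table holds them.

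**Figure D3:**
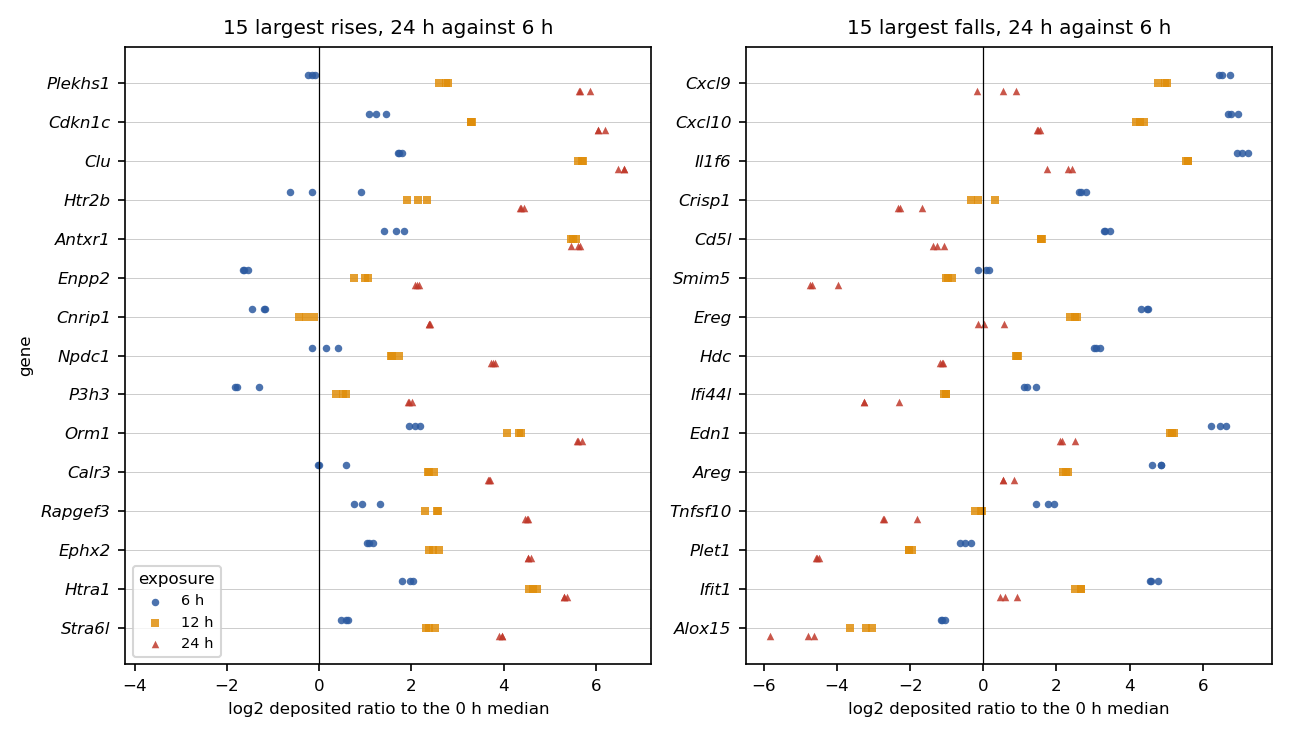
Log2 deposited ratio to the 0 h median (horizontal axis) of each sample at 6, 12 and 24 h for the 15 genes with the largest rise and the 15 with the largest fall between 6 h and 24 h. For most genes the 12 h values lie between those of 6 h and 24 h, and Antxr1 is already at its 24 h level at 12 h.

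Interferon-induced genes fell widely. Ifnb1, which encodes interferon beta, was at 38.7, 39.6 and 36.3 at 6 h, at a mean of 20.7 at 12 h and at 9.91, 9.81 and 8.77 at 24 h, 4.02-fold lower (adjusted p = 2.71e-07). Of 32 type I interferon-stimulated genes, 24 fell and none rose (median -1.71). All 15 interferon-induced GTPases, which act on pathogen-containing vacuoles, fell (median -2.38). Rsad2, the antiviral enzyme viperin, went from 114, 108 and 94.1 to 9.45, 7.82 and 8.3, 12.3-fold lower, and remained above its 0 h level. Ifit1 and Ifit2, which bind foreign RNA, fell 15.7-fold and 14-fold, and Cmpk2, a mitochondrial nucleotide kinase beside Rsad2, fell 12.7-fold. Gbp4, a guanylate-binding protein, stood at 3.32, 2.86 and 2.79 and then at 0.25, 0.261 and 0.273, so that all 3 late values were below the 0 h level as well. The median of the GTPase list from 0 h was 1.57 at 6 h, 0.1 at 12 h and -0.88 at 24 h. In the scanner values 12 of the 32 and 10 of the 15 were called lower and none higher.

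Promoters of genes with large falls are shown for a sequence feature that the choice of samples did not use. Ifit1 and Rsad2 belong to the interferon lists and Cxcl10 to the chemokine list. The interferon lists were written as known interferon-induced genes, with earlier results of these data known. A high share with this feature in them is therefore not separate evidence. The interferon-stimulated response element, ISRE, was searched as GAAA, any 2 bases and GAAA, on both strands, in the window from 250 bases before to 50 bases after the start of each gene, in RefSeq sequence of mouse build GRCm38.p6. It was present in 22 of 33 promoters (66.7%) of both interferon lists together, against 3.19% of all 9335 promoters matched to tested genes. Among genes called lower at 24 h 6.87% held it, and among genes called higher 2.32%. The 250 bases before the start are given 5′ to 3′ on the strand of the gene, with matches to ISRE and to an NF-kB motif (GGGAA, any 3 bases and CC, on both strands) in capitals. The NF-kB motif was found in Cxcl10 and Rsad2, and 6.52% of all promoters hold it. These are Cxcl10 on the minus strand at chr5:92348890-92349139, Ifit1 on the plus strand at chr19:34640639-34640888 and Rsad2 on the minus strand at chr12:26456453-26456702.
Cxcl10: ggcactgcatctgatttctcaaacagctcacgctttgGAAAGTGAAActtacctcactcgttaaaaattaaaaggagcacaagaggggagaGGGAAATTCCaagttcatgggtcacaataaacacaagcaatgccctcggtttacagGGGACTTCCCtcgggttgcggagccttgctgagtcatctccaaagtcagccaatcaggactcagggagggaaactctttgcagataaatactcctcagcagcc
Ifit1: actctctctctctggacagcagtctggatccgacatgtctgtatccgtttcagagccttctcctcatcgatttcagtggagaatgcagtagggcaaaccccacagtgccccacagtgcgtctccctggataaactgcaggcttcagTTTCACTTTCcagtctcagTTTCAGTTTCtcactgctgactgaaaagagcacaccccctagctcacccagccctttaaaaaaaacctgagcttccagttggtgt
Rsad2: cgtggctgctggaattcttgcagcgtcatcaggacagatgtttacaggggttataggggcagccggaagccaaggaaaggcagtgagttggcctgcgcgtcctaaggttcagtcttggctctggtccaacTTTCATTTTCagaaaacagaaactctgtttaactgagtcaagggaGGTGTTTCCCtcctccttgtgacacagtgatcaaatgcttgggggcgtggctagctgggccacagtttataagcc
Each match is a run of letters and was not tested as a binding site.

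NF-kB components and brakes came down without returning fully. Of 23 measured, 12 fell and none rose (median -1.07), and 21 had been called higher at 6 h. Of all 23, 19 were called lower and none higher in the scanner values. Nfkbia, which encodes the inhibitor IκBα, was at 5.46, 5.31 and 5.05 and then 1.82, 1.81 and 1.9, a 2.86-fold fall with no overlap. The 24 h values all lay below those at 6 h in 36.2% of all genes. Nfkbiz, a nuclear regulator of secondary NF-kB targets, fell 6.49-fold. Rel, the NF-kB subunit c-Rel, fell 4.54-fold, from 15, 12.3 and 30.3 to 3.61, 3.43 and 4.79, with the third 6 h sample the highest, and its call was lost with slide as a block (adjusted p = 0.0703). Of 15 SOCS and cytokine feedback genes 4 fell and 1 rose (33.3% called, beside 15.3% of all genes), with 2 falls under quantile normalization. The scanner values called 7 of the 15 lower and 2 higher. Socs3, an inhibitor of cytokine receptor signalling, fell 2.14-fold, below the fold threshold with slide as a block (log2 change -0.92), and Cish, a STAT5 target, went from 0.166, 0.145 and 0.142 to 0.0175, 0.0166 and 0.0166. Of 20 Toll-like receptors and adaptors, 1 (5%) was called, beside 15.3% of all genes. It was Myd88, the adaptor of most of these receptors, which fell 2.54-fold. The scanner values called 6 of the 20 lower and 2 higher.

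Immediate early genes, which encode short-lived transcription factors, gave 8 falls and 1 rise among 31, with 5 falls under quantile normalization. The share called was 29%, beside 15.3% of all genes. In the scanner values 12 were called lower and 2 higher. Nr4a3 and Nr4a1, orphan nuclear receptors, fell 8.12-fold and 4.89-fold, and Dusp2, a phosphatase that switches off MAP kinases, 4.79-fold. Fos, a subunit of AP-1, was the rise: it was below its 0 h level at 6 h (0.386, 0.356 and 0.365) and near it at 24 h (0.798, 0.792 and 0.806). Egr1, a growth factor-induced factor, stayed low at both times, at a log2 change of 0.17 (adjusted p = 0.058).

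Maturation genes moved in both directions. Of 22 measured, 12 fell and 3 rose (median -1.14). Cd86, the ligand of CD28 on T cells, was at 5.8, 5.09 and 5.19 at 6 h and 1.19, 1.31 and 1.26 at 24 h, 4.27-fold lower (adjusted p = 5.97e-09). Tnfsf15, a TNF family ligand of T cells, fell 8.89-fold and Icosl, the ligand of ICOS, 4.31-fold. Cd80 and Cd83, further surface molecules of mature cells, changed by -0.86 and -0.82 on the log2 scale and were not called. Fscn1, the actin-bundling protein fascin of mature dendritic cells, rose 2.29-fold, from 4.61, 4.85 and 5.1 to 10, 11.3 and 12, and under quantile normalization its change of 0.99 fell short of the fold threshold. Cd200, a membrane protein that restrains myeloid cells, rose 3.5-fold, from 17.5, 17 and 16.8 to 60.5, 58 and 60.9. Ccr7, which guides cells to lymph nodes, stood at 5.77, 5.65 and 5.78 and then 7.5, 7.85 and 8.69, not called at a log2 change of 0.48. The scanner values called 19 of the 22 lower and none higher, and there Cd200 was at -4.6, Fscn1 at -2.96 and Ccr7 at -2.35, opposite to the table.

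Antigen presentation genes were called in shares of 18.2% (class II) and 17.6% (class I), near the 15.3% of all genes. Of 11 MHC class II genes 2 fell, Ciita, the master regulator of the class, 4.94-fold (1.48, 1.23 and 1.35 against 0.261, 0.274 and 0.285), and H2-Ob, a chain of the DO molecule, 4.2-fold. H2-Ab1, a class II chain, changed by -0.78 and was not called. Of 17 class I and immunoproteasome genes 3 fell, among them the peptide transporter genes Tap1 and Tap2 at 2.19-fold and 2.22-fold, which were not called under quantile normalization (log2 changes -0.89 and -0.92). Scanner calls were 2 class II genes higher and none lower, and no class I gene, of which 13 had an unadjusted limma p below 0.05 there.

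**Figure D4:**
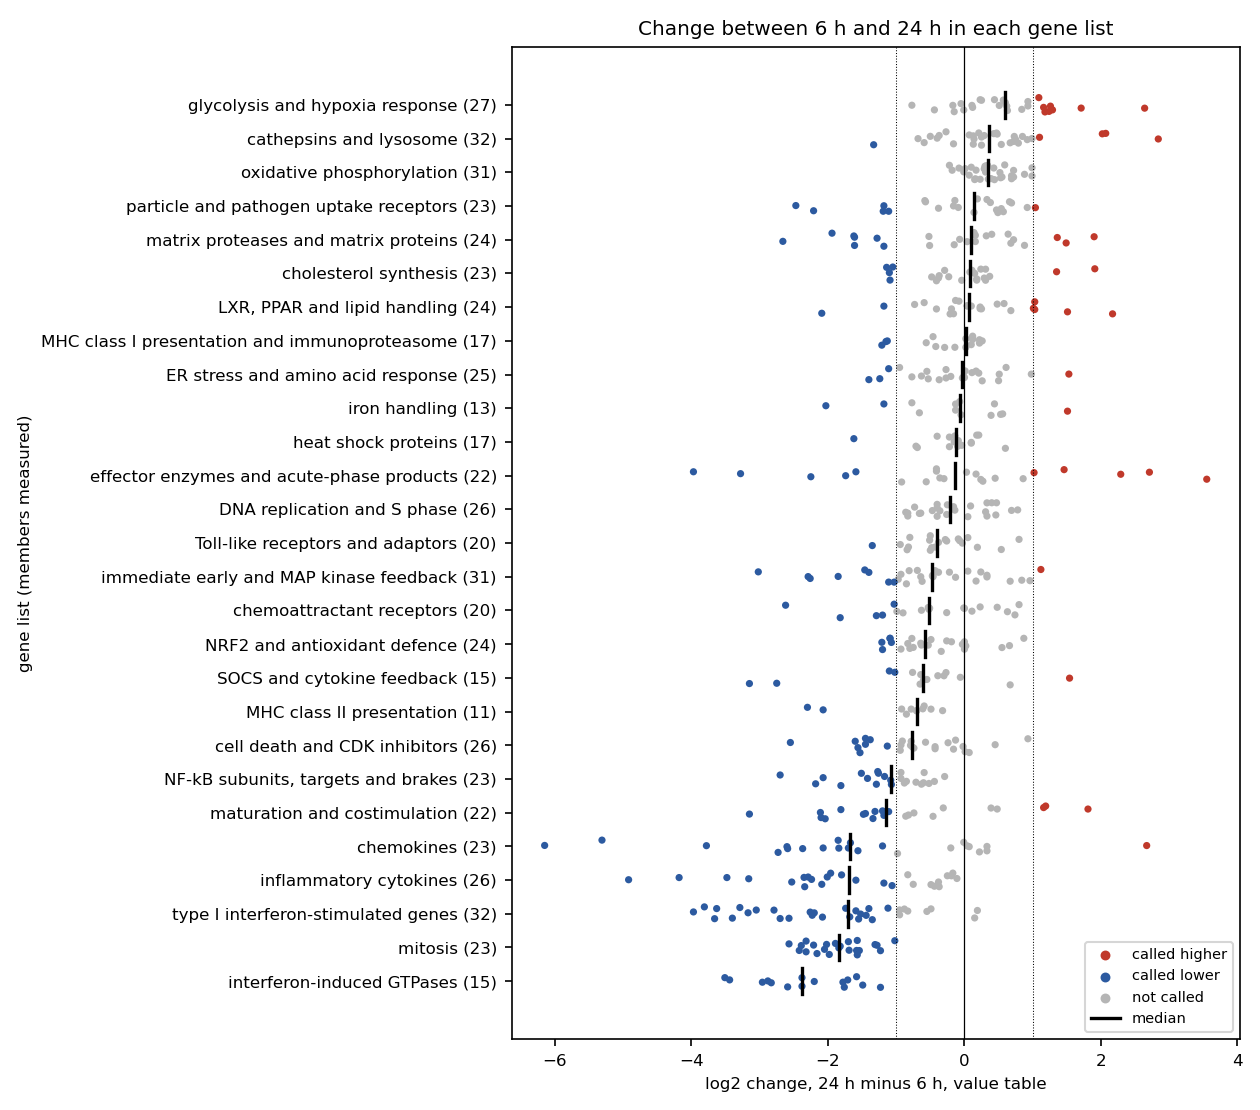
Log2 change between 6 h and 24 h in the value table (horizontal axis) of every measured member of 27 gene lists, ordered by their medians (black bars), with dotted lines at 2-fold. All members of the interferon-induced GTPase and mitosis lists were called lower, and the glycolysis and hypoxia list has the highest median, 0.6.

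Mitosis genes were low late. All 23 measured fell between 6 h and 24 h (median -1.84), where 8.63% of all genes did. Cdc20, an activator of the anaphase-promoting complex, was at 0.728, 0.677 and 0.65 at 6 h, at a mean of 0.335 at 12 h and at 0.132, 0.131 and 0.129 at 24 h, 5.25-fold lower (adjusted p = 1.72e-09). Cenpe, a kinesin of the kinetochore, fell 5.96-fold, and Top2a, which untangles DNA, 4.46-fold, from 0.562, 0.527 and 0.508 to 0.125, 0.107 and 0.127. No member's groups overlapped among those named, where in 36.2% of all genes the 24 h values all lay below. The DNA replication list did not show these falls: none of its 26 members was called between 6 h and 24 h by limma, 22 having an unadjusted p below 0.05 with changes under 2-fold in the value table, while 19 had been called lower at 6 h (median -1.36 from 0 h). By contrast 14 of the 26 were called higher and none lower in the scanner values (median 1.04). In bulk RNA, fewer cells of a type and less RNA per cell cannot be told apart. Granulocyte markers were lower beside the mitosis genes in the value table: 8 of 10 fell and none rose (median -2.09), among them Elane, neutrophil elastase, from 0.417, 0.45 and 0.429 to 0.0353, 0.0309 and 0.0239, and Mpo, myeloperoxidase, 6.65-fold. Scanner values differed, with 4 of the 10 called higher and none lower (median 0.7), 2 of them opposite to a call in the table. The part of granulocytes in the mitosis result was not tested. The summed scanner level of the granulocyte markers ranged from 286 to 329 at 6 h and from 301 to 309 on the arrays labelled 24 h. The scanner values called 22 of the 23 mitosis genes higher, with Cdc20 at 1.64, so the direction of this list depends on the source.

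Both promoters that follow are shown for their CCAAT boxes, a motif of many cell cycle promoters. The letters CCAAT, searched on both strands in the same window, were present in 16 of 19 mitosis promoters (84.2%), against 39.2% of all, 40.2% of genes called lower and 37.2% of genes called higher. Cdc20 lies on the minus strand at chr4:118437344-118437593 and Cenpe on the plus strand at chr3:135212313-135212562, with matches in capitals.
Cdc20: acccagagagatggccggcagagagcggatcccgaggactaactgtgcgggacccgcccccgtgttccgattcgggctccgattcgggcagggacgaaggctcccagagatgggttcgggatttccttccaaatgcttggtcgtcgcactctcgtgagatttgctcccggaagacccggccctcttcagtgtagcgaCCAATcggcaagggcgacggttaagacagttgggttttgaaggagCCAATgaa
Cenpe: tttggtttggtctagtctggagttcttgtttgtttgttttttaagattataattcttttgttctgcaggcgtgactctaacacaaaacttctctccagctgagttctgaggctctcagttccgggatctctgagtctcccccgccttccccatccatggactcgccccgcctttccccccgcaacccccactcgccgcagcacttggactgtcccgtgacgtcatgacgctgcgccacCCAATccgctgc

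**Figure D5:**
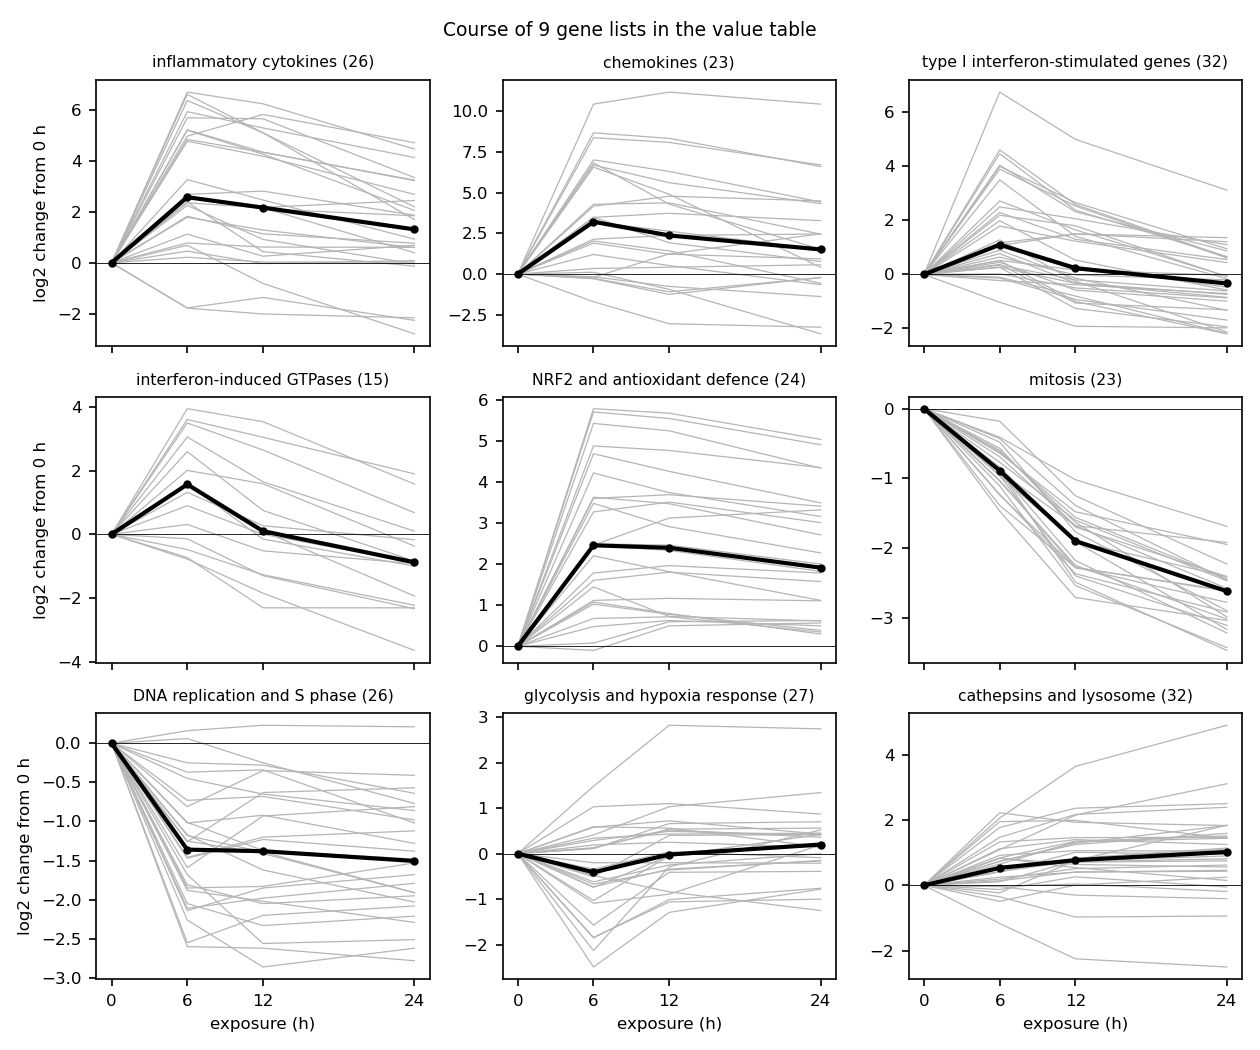
Log2 change from 0 h in the value table (vertical axis) against hours of exposure (horizontal axis) for each measured member (grey) and the median (black) of 9 gene lists. The cytokine and interferon lists peak at 6 h, the antioxidant list stays raised, and the mitosis list falls at each step while the DNA replication list is already low at 6 h.

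Antioxidant genes controlled by NRF2 mostly held in the value table and were mostly lower in the scanner values. Of 24 measured, 20 were called higher at 6 h and 15 of these held. Holding was common in general: 1752 of the 2439 genes called higher at 6 h held. Between 6 h and 24 h 5 fell and none rose (median -0.58), a share of 20.8% called beside 15.3% of all genes. Scanner values gave 14 of the 24 lower and none higher (median -1.26), among them the 5 that fell in the table. Hmox1, heme oxygenase 1, was at 26, 25.4 and 25.7 and then 11.5, 10.8 and 11.3, 2.3-fold lower and still above 0 h. Nqo1, a quinone reductase, fell 2.12-fold, from 42.1, 45.5 and 45 to 20.4, 21.2 and 20.8. Slc7a11, the cystine importer, changed by -0.8 and was not called. The heat shock list gave 1 fall among 17 (5.88%, beside 15.3% called of all genes), Hspa1a, the inducible HSP70, at 3.08-fold. For this list the scanner values called 7 lower and 1 higher.

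Genes of glycolysis and the hypoxia response had the highest median of the 27 pathway lists in the value table (0.6): 8 of 27 rose and none fell, and 6 of the 8 had been called lower at 6 h. The share called was 29.6%, beside 15.3% of all genes. P4ha2, a collagen prolyl hydroxylase, went from 0.231, 0.211 and 0.228 to 1.39, 1.25 and 1.56, 6.24-fold higher (adjusted p = 2.16e-08). Pdk1, a pyruvate dehydrogenase kinase, rose 3.26-fold, from 0.153, 0.184 and 0.188 to 0.553, 0.579 and 0.575, and stayed below its 0 h level. Aldoc, a glycolytic aldolase, rose 2.44-fold. The scanner values called 2 of the list higher and 5 lower, with Pdk1 at 1.32. P4ha2 was not well above background on any array labelled 24 h and above it on 1 of 3 at 6 h. With its 24 h values raised to the lowest signal above background it was 2.17-fold lower there. Its 6 h signal was mostly dim too, so the size of this fall is uncertain. Of 31 oxidative phosphorylation genes none was called by limma in the value table (median 0.34), where 25 had an unadjusted p below 0.05 with changes under 2-fold, and the scanner values called 1 higher and 1 lower.

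Among 32 cathepsin and lysosome genes 4 rose and 1 fell (median 0.36), and 24 had a positive change. The share called, 15.6%, was near the 15.3% of all genes. With slide as a block 7 rose. Ctsk, the collagen-degrading cathepsin K, was at 4.49, 4.14 and 3.55 at 6 h and 29.3, 27.9 and 29.6 at 24 h, 7.17-fold higher (adjusted p = 3.69e-09). Atp6v0d2, a subunit of the proton pump that acidifies lysosomes, rose 4.2-fold, and Gpnmb, a lysosomal membrane glycoprotein, 4.06-fold, from 2.25, 2.11 and 2.03 to 8.53, 8.58 and 8.81. Scanner calls were 4 higher and 1 lower, with Ctsk at -0.55 and Gpnmb at 0.36, neither of them called. Of all genes, 29% were called there.

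Lipid genes gave small groups. Of 24 LXR, PPAR and lipid handling genes 5 rose and 2 fell, a share of 29.2% called beside 15.3% of all genes. Abca1, the cholesterol exporter, rose 2.84-fold and Ch25h, which makes 25-hydroxycholesterol, fell 4.26-fold. Scanner values gave 6 of the 24 higher and 3 lower. Fabp5, a fatty acid carrier, rose 4.5-fold, but its 6 h values of 1.73, 1.51 and 6.18 were uneven, and with slide as a block it was not called (adjusted p = 0.0738). Of 23 cholesterol synthesis genes 2 rose and 4 fell in the value table (median 0.08), 26.1% called beside 15.3% of all genes. Dhcr7, the last enzyme of the pathway, was 3.77-fold higher and Srebf2, its transcription factor, 2.21-fold lower. Under quantile normalization none of the 4 falls was called. By scanner intensity 18 of the 23 were called lower and none higher (median -1.95).

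Effector and acute-phase genes went both ways, 5 up and 5 down among 22. Ptgs2, the inducible cyclooxygenase, was at 257, 220.1 and 226 and then 23.1, 23.6 and 25.7, 9.71-fold lower. Nos2, the inducible nitric oxide synthase, fell 3.34-fold. Arg1, arginase 1, rose 6.55-fold from very low ratios (0.0493, 0.0512 and 0.0432) to 0.323, 0.315 and 0.302. Saa3, serum amyloid A3, was already at 315, 296 and 277 at 6 h and reached 1422, 1436 and 1469.9, 4.88-fold higher. Orm1, the acute-phase protein orosomucoid, rose 11.7-fold. Among the 22, scanner values called 13 lower and 5 higher, 4 of them opposite to the table. Saa3 was at -7.02 there, and Orm1, well above background on 2 of 3 arrays at 6 h and 1 of 3 labelled 24 h, at -1.08. Marco, a scavenger receptor that binds particles, was at 102, 101 and 93.2 and then 188, 180 and 192, a log2 change of 0.92 that missed the fold threshold, against -7.06 in the scanner values.

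The 9 largest rises were of genes outside these lists. Plekhs1, a pleckstrin homology domain protein, was at 0.895, 0.942 and 0.842 at 6 h, at a mean of 6.57 at 12 h and at 49.5, 50.6 and 58.4 at 24 h, 59-fold higher (log2 change 5.88, SE 0.0933, adjusted p = 9.51e-11). Cdkn1c, the cell cycle inhibitor p57, rose 28.7-fold, from 2.71, 2.34 and 2.11 to 66, 65.5 and 72.8. Clu, the extracellular chaperone clusterin, rose 28.2-fold, from 3.34, 3.26 and 3.48 to 89.2, 97.8 and 97.5. In none of these did the groups overlap, and in 30.6% of all genes the 24 h values likewise all lay above. Htr2b, a serotonin receptor, rose 20.3-fold, Antxr1, an anthrax toxin receptor, 15.3-fold and Enpp2, which makes lysophosphatidic acid, 13.2-fold. The scanner values put Clu at -1.11. Plekhs1 and Cdkn1c, each well above background on only 1 of 3 arrays at 6 h, were at 1.94 and 0.85. Falls outside the lists included Ereg and Areg, ligands of the EGF receptor, at 19.4-fold and 17.6-fold, and Hdc, which makes histamine, at 18.8-fold.

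Conventional dendritic cell markers did not move together: 2 of 11 rose and 2 fell. Clec9a, a receptor for dead cells, went from 0.351, 0.31 and 0.257 to 2.79, 3.44 and 3.19, 10.3-fold higher, and Flt3, a growth factor receptor, rose 5.95-fold. Clec9a passed the filter on dim probes only through the arrays labelled 24 h, so its place among the rises depends on that filter. Zbtb46 and Irf4, transcription factors of the lineage, fell 2.44-fold and 2.01-fold. Irf4, at the threshold, was not called without the first 6 h or the first 24 h sample (log2 change -0.95 in both), and under quantile normalization neither fall was called, nor the rise of Flt3 (adjusted p = 0.0559). Scanner values gave 3 of the 11 higher and 2 lower. Of 8 macrophage markers 3 fell, the complement genes C1qa, C1qb and C1qc, at 2.44-fold, 4.32-fold and 2.97-fold. By scanner intensity 5 of the 8 were called higher and none lower (median 1.5), and all 3 complement genes were among the higher. Ms4a3, a gene of granulocyte precursors, was at 0.291, 0.282 and 0.275 at 6 h and at the lowest ratio of the table, 0.01, in all 3 columns at 24 h, so no fold is given.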

How the data were processed

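Samples were grouped by their titles, 3 each at 0, 6, 12 and 24 h. The authors scanned 1-colour arrays with Agilent Feature Extraction 9.1.3.1, per the submitters' processing notes, and deposited spot intensity values and a table of linear ratio values. From the values, each ratio is relative to the median of the 3 values at 0 h per probe; no source used here states how columns were scaled. Log2 ratios of 18407 genes were fitted with limma 3.58.1 in R 4.3.3, with 4 group means and 8 residual degrees of freedom. A gene was represented by its kept probe with the highest mean signal, and 11579 genes had a symbol through RefSeq accessions. A kept probe was well above background, by the deposited array flags, in at least a share of 0.5 of its spots on all 3 arrays of at least 1 time point. Scanner values were log2 processed signal minus the 75th percentile of each array, without outlier spots. The normexp alternative used the median spot signal with an offset of 50, since the files analysed hold no mean signal column. In simulated data on 18407 genes for 24 h against 6 h, 93 of 100 changes of 2 on the log2 scale and 88 of 100 of 1.5 were called, with 5 false calls. The simulation drew independent normal noise for each gene, changed few genes and held no slide or scaling effect. Its false calls therefore do not estimate those in the deposited values. P-values measure the spread between these samples only, and with 3 arrays per time the precision is limited by their number. Genes are named by a rule: the 15 largest rises and falls, up to 3 rises and 3 falls per list, the leading genes of each course and of the scanner values, and a fixed set; of those, the ones described are given. The comparison and the lists were chosen with earlier results of these data known. No pairing by replicate number was seen: deviations of same-numbered 6 h and 24 h columns correlated at -0.0216, -0.0669 and 0.00248. The titles do not say whether equal numbers mark the same experiment, so samples were fitted unpaired. Promoters were matched by symbol for 9335 of the 11579 named genes (80.6%). Alternatives covered the scaling, filter, lowest ratio, probe choice, slide, replicate block, variance model, threshold, source and each replicate left out.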

Additional observations from a re-analysis of the deposited data

How the results depend on the processing

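The count of 2808 genes called in the value table ranged from 2746 to 2913 when each 6 h or 24 h replicate was left out, and was 2609 of 17320 genes with a filter, added after seeing the data, that ignored the arrays labelled 24 h. With the replicate number as a block 2807 genes were called in the table and 5330 in the scanner values. Quantile normalization gave 1647 called genes, 821 lower, with 301 transient, 71 further rise, 1030 held, 118 further fall and 402 late fall. Requiring probes above background on all 6 h and 24 h arrays gave 109 further rises and 266 recovered genes. The adjusted p alone gave 11329 called genes, 5084 higher and 6245 lower, with 3491 transient, 1423 further rise, 1107 late rise, 2554 recovered, 1429 further fall and 1325 late fall. A 1.5-fold threshold gave 5748, 2653 higher and 3095 lower, with 1239 transient, 395 further rise, 2833 held, 1097 late rise, 1161 recovered, 633 further fall and 1223 late fall. The scanner values gave 5337, 3428 higher, with 1630 transient, 0 further rise, 241 held, 2778 recovered, 0 further fall and 279 late fall. Only 154 genes were called between the arrays labelled 24 h and 0 h there, so these class sizes largely restate that resemblance. With normexp the scanner values gave 2699, 1442 higher and 1257 lower.

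In the scanner values these named genes turned direction on the log2 scale: Clu at -1.11, Antxr1 at -2.83, Enpp2 at -0.97, Orm1 at -1.08, Cd200 at -4.6, Fscn1 at -2.96, Ctsk at -0.55, P4ha2 at -1.46, Saa3 at -7.02, Flt3 at -0.4, Marco at -7.06, Ccl5 at -3.96, Ccr7 at -2.35 and Slc11a1 at -2.32 became lower. Ltb at 1.1, Cenpe at 1.83, Cdc20 at 1.64, Top2a at 1.18, C1qa at 2.27, C1qb at 1.53, C1qc at 1.68, Elane at 1.38, Mpo at 1.02, Ms4a3 at 0.56 and Ccr2 at 4.5 became higher. Plekhs1 in the scanner values was at -0.2 with outlier spots kept. Of these values, those of Antxr1 and Ccl5 are only bounded, at falls of at least 1.96-fold and 15.5-fold. Antxr1 was not well above background on any array labelled 24 h, and Ccl5 was saturated at 6 h. P4ha2 was not well above background on any array labelled 24 h and was mostly dim at 6 h, so its value is uncertain. The cause of the turned directions was not tested.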

Other observations

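Matrix genes changed in both directions in the value table: of 24 measured, 3 rose and 7 fell (median 0.09). By scanner intensity 13 were called lower and 1 higher (median -1.51). Mmp2, a gelatinase, rose 3.73-fold, from 3.48, 3.28 and 3.38 to 12, 12.9 and 13, and Timp2, an inhibitor of such proteases, rose 2.57-fold. Mmp13, a collagenase, fell 6.31-fold, from 19.6, 19 and 17.2 to 3.1, 2.91 and 2.84. Their groups did not overlap, where the 24 h values all lay above in 30.6% of all genes and all below in 36.2%. Iron genes gave 1 rise and 2 falls among 13, a share of 23.1% called beside 15.3% of all genes. Slc11a1, a metal transporter of phagosomes, rose 2.84-fold and Slc40a1, the iron exporter ferroportin, fell 4.1-fold. Scanner values gave 3 of the 13 lower and 1 higher.

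Receptors for particles and attractants were called in shares of 26.1% and 25% in the value table, beside 15.3% of all genes. Of 23 uptake receptors 1 rose and 5 fell, among them Olr1, a receptor for oxidised lipoprotein, 2.28-fold lower. Scanner calls were 8 higher and 4 lower, 3 of these opposite to the table. Of 20 chemoattractant receptors 5 fell and none rose, with 2 falls under quantile normalization and 3 with slide as a block. Scanner calls were 7 higher and 5 lower, 2 of these opposite to the table. Hcar2, a receptor for niacin and ketone bodies, went from 2.79, 2.98 and 2.85 to 0.449, 0.497 and 0.462. Ccr2, which guides monocytes, was already low at 6 h (0.0622, 0.0657 and 0.0604) and lower at 24 h (0.0176, 0.018 and 0.0178), while the scanner values put its change at 4.5.

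Of 26 cell death genes and CDK inhibitors 8 fell and none rose, a share of 30.8% called beside 15.3% of all genes. The scanner values called 9 of the 26 lower and 2 higher. Ccnd2, cyclin D2, fell 5.85-fold and Cdkn2b, the CDK inhibitor p15, 3.03-fold from ratios of 25.2, 24.2 and 23.2. Of 25 ER stress genes 1 rose and 3 fell, a share of 16% beside 15.3% of all genes. Ddit4, an inhibitor of mTORC1, was 2.88-fold higher and Nupr1, a stress-induced chromatin protein, 2.64-fold lower. The scanner values called 6 of the 25 lower and 1 higher. Of 8 mast cell, basophil and eosinophil markers 5 fell and 1 rose, and Cpa3, a mast cell protease, fell 3.49-fold. None of the 8 was called by limma in the scanner values (median 0.09), where 5 had an unadjusted p below 0.05.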
